A study of Mus musculus with 6 samples.

Results

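The miR-21a hairpin of the mouse gives 2 mature miRNAs, mmu-miR-21a-5p and mmu-miR-21a-3p, and both are rows of the deposited miRNA table. They were taken by name, 2 of 1065 rows, in 6 small RNA libraries of C2C12 cells, a mouse myoblast line. In 3 libraries the cells had been given TGF-beta and in 3 they were controls, and the series asks how myoblast miRNAs respond to this cytokine in the setting of muscle fibrosis. The labels name no dose, duration or isoform of TGF-beta. No genetic change is named for either group, all cells are of 1 line, and no label ties the libraries to separate cultures. The p-values therefore reflect only how these libraries vary, which may be technical.

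miR-21 is one of the miRNAs best known from fibrosis. Its precursor is cut by Drosha and Dicer into a duplex, of which the 5p strand is the one usually kept in the Argonaute complex, while the 3p strand is mostly discarded. In other cells TGF-beta is known to raise mature miR-21 through Smad proteins, which bind a CAGAC element in the stem of the precursor and aid Drosha. Known targets of miR-21-5p include Pdcd4 and the TGF-beta inhibitor Smad7. In sequencing by share of reads, a row as abundant as miR-21a-5p also sets the scale on which all other rows are read, because the shares of a library sum to a fixed total.

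The mature sequences of both arms, from RefSeq for build GRCm38.p6, are shown because the seed (bases 2 to 8, in capitals) separates them from each other and from the other rows.
miR-21a-5p: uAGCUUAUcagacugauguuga
miR-21a-3p: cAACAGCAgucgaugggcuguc
The 5p arm lies at chr11:86584120-86584141 and the 3p arm at chr11:86584082-86584103, both on the minus strand. The Mir21a hairpin, chr11:86584067-86584158, lies inside the last exon (exon 12 of 12) of Vmp1, a gene of autophagy on the same strand, in the part that GENCODE M21 annotates as UTR beyond the coding end. The authors' build was mm9, so these positions are those of the annotation and not of their files. In the predicted fold of the hairpin (RNAfold, −46.2 kcal/mol) 19 of the 22 bases of each arm pair with the other arm. No other row of the table matched to RefSeq has the seed of either arm. RefSeq lists miR-21c with the seed of miR-21a-5p, but that name has no row in the deposited table and so was not analysed here. The nearest of the 864 other matched rows differs from miR-21a-5p by 7 edits (miR-101a-5p) and from miR-21a-3p by 8 edits (let-7f-2-3p).

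The libraries held 9015669 to 9450936 miRNA reads with TGF-beta and 9273231 to 9813063 in control. Of the markers fixed for myoblasts (miR-206-3p, miR-1a-3p, miR-133a-3p and miR-133b-3p), 4 of 4 were listed. They summed to 100931 to 102094 RPM with TGF-beta and 134112 to 153637 RPM in control, where RPM is reads per 1000000 miRNA reads. Most of this sum was miR-206-3p, with means of 86350 RPM with TGF-beta and 126884 RPM in control. miR-1a-3p averaged 14164 and 19024 RPM, miR-133a-3p 576 and 687 RPM, and miR-133b-3p 404 and 520 RPM. The extraction text of the labels speaks of retinas, unlike the cell line label. Of 7 retina and neuron miRNAs 6 were listed, at a summed 6368 to 8600 RPM with TGF-beta and 7637 to 8661 RPM in control. By mean, miR-182-5p had 3778 RPM with TGF-beta and 3974 RPM in control, miR-183-5p 2544 and 2770 RPM, and miR-9-5p 1215 and 1408 RPM. miR-96-5p had 75.5 and 80.6 RPM, and miR-211-5p 0.107 and 0.0356 RPM. miR-204-5p was at 0 RPM in the TGF-beta libraries, which allows up to 0.333 RPM, and averaged 0.350 RPM in control. The sums for blood miRNAs were 2.01 to 4.88 RPM with TGF-beta and 1.94 to 2.55 RPM in control. In bulk RNA, a change in the mix of cells and a change in the RNA of each cell cannot be told apart.

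miR-21a-5p, the guide arm, was the most abundant row in all 6 libraries and took a larger share with TGF-beta. It took 34.0%, 34.7% and 36.7% of the miRNA reads in TGF-beta replicates 1, 2 and 3, against 27.4%, 27.9% and 25.8% in control replicates 1, 2 and 3. The groups did not overlap, as for 21.3% of the 418 tested names, of which 9.09% had all TGF-beta libraries above all controls. TGF-beta replicate 3 was the highest and control replicate 3 the lowest library. These shares rest on 3166719, 3283660 and 3311029 reads with TGF-beta and on 2686594, 2590510 and 2416321 reads in control. The exact 95% binomial interval of a share (Clopper-Pearson) reached at most 0.0315 percentage points to either side, and it covers counting error only. The difference of the mean shares was 8.13 percentage points, with a two-sided exact permutation p of 0.1, the smallest that 3 against 3 libraries can give.

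**Figure D1:**
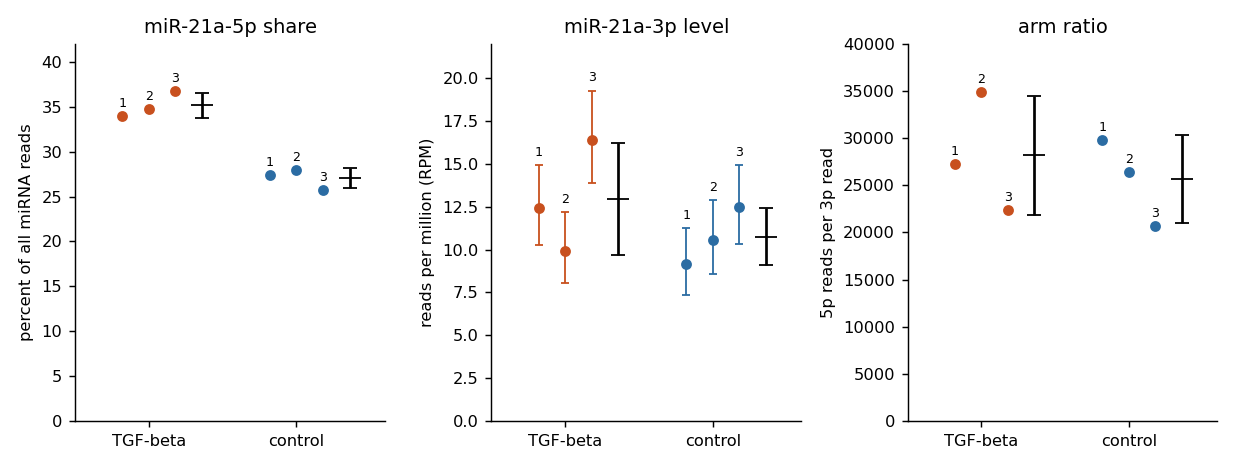
Values of the miR-21a arms in each library, TGF-beta left of control, with replicate numbers beside the points and the mean ± SD in black: percent of all miRNA reads of miR-21a-5p, RPM of miR-21a-3p with 95% Poisson intervals of its reads, and 5p reads per 3p read. The 5p shares do not overlap (34.0% to 36.7% with TGF-beta, 25.8% to 27.9% in control), whereas the 3p levels and the arm ratios do.

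On the log2(RPM + 1) scale, miR-21a-5p was at 351579 ± 14070 RPM with TGF-beta and 270295 ± 11213 RPM in control (SD, n = 3 each). It rose by a log2 fold change of 0.38 (SE 0.07, 95% interval 0.23 to 0.53), or 1.30-fold, and limma over all 418 tested names gave a Benjamini-Hochberg adjusted p of 0.00146. Higher calls made up 4.07% of the tested names, 17 of 418, and of these miR-21a-5p had the smallest log2 fold change. Its spread was narrow beside the change, with a coefficient of variation of 4.002% with TGF-beta and 4.15% in control, against medians of 9.05% and 5.61% over the 57 names that averaged 1000 RPM or more. The call was lost at the same fold in limma without an intensity trend (adjusted p = 0.158) and in limma without a filter on low values (adjusted p = 0.110). Quantile normalization gives the top row 1 value in every library and so leaves no difference. In the authors' deposited table, the unadjusted p of miR-21a-5p is 0.00144 and that of miR-21a-3p is 0.357.

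miR-21a-3p, the passenger arm, was a low row, ranked 231 of 1065 by its mean level. It had 12.5, 9.95 and 16.4 RPM in TGF-beta replicates 1, 2 and 3, against 9.17, 10.6 and 12.5 RPM in control replicates 1, 2 and 3, from 116, 94 and 148 reads and from 90, 98 and 117 reads. The groups overlapped, and TGF-beta replicate 3 was the highest library, as it was for the 5p arm. The log2 fold change was 0.23 (SE 0.19, 95% interval −0.17 to 0.63), and it did not pass the test of limma (adjusted p = 0.640). The interval holds the log2 fold change of the 5p arm as well as 0. Without TGF-beta replicate 3 the value was 0.06. The coefficient of variation was 25.2% with TGF-beta and 15.5% in control, where counting error at these reads would give 9.15% and 9.92%. With this spread, a difference in the 3p arm of the size found in the 5p arm was not detectable.

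The ratio of the arms was the most skewed among the hairpins tested, whose filter bounds the skew by the level of the major arm. There were 27299, 34933 and 22372 reads of 5p for each read of 3p in TGF-beta replicates 1, 2 and 3, against 29851, 26434 and 20652 in control replicates 1, 2 and 3. The groups overlapped, with replicate 2 the highest TGF-beta library and replicate 3 the lowest of both groups. Put the other way, the hairpin gave 36.7 ± 8.04 reads of 3p per 1000000 reads of both arms with TGF-beta and 39.9 ± 7.68 in control (SD, n = 3 each). Their difference gave a two-sided exact permutation p of 0.6.

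Over 52 hairpins whose arms both averaged 10 RPM or more, miR-21a ranked 1 in skew. Its log2 ratio of the major to the minor arm, both as mean RPM + 1, was 14.56. Its arms averaged 310937 and 11.8 RPM. The filter drops hairpins with a scarcer minor arm, so the level of the major arm bounds the skew. No other row averaged more than 106617 RPM, so no other hairpin that passed the filter could reach 14.56. The next hairpins by this measure were miR-27b at 9.65 and miR-378a at 8.89, both with the 3p arm as the major one, and the median of the 52 was 3.68. The log2 5p to 3p ratio of miR-21a differed by 0.15 between TGF-beta and control (SE 0.20, 95% interval −0.34 to 0.64), with a limma adjusted p of 0.869. The size of that difference ranked 26 of 52, beside a median absolute change of 0.15. Limma called 0 of the 52 hairpins, which is 0% of those tested, with 6 at an unadjusted p under 0.05.

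**Figure D2:**
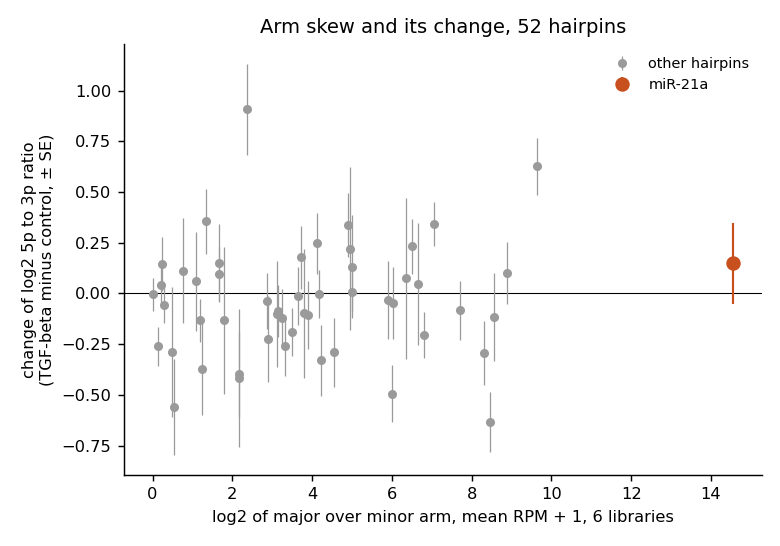
Change of the log2 5p to 3p ratio (TGF-beta minus control, ± SE) against the skew between arms, as log2 of the major over the minor arm, for 52 hairpins. miR-21a lies on the right at 14.56, which the filter of 10 RPM on both arms lets no other hairpin reach. Its change of 0.15 has an SE of 0.20, which crosses 0.

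A ratio between 2 rows of a library does not depend on the total, so miR-21a-5p was set against each of the 9 next most abundant miRNAs. Against miR-206-3p, which is specific to skeletal muscle and promotes differentiation, there were 4.02 to 4.16 reads of miR-21a-5p per read with TGF-beta and 1.94 to 2.39 in control. This ratio rose by 0.93 on the log2 scale, or 1.91-fold. Against let-7g-5p, of the let-7 family that restrains growth, the ratio was 15.4 to 19.3 with TGF-beta and 12.4 to 13.2 in control, a log2 difference of 0.37 and the smallest of the 9. The log2 difference was 0.80 for miR-378a-3p, a miRNA from the metabolic gene Ppargc1b, and lay between 0.39 and 0.49 for miR-143-3p, miR-99b-5p, miR-27b-3p and the let-7c, let-7f and let-7i guide arms. All 9 ratios were higher in every TGF-beta library than in every control library. Over all 417 other tested names that was so for 52.3%. The ratios share the miR-21a-5p reads, so they are not 9 separate observations.

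**Figure D3:**
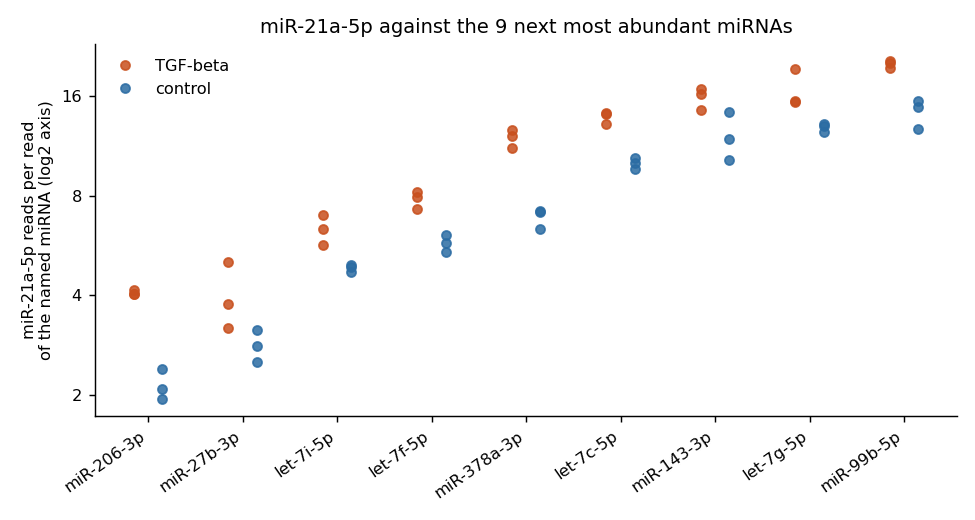
Reads of miR-21a-5p per read of each of the 9 next most abundant miRNAs, on a log2 axis, with 1 point per library, TGF-beta left of control. TGF-beta points lie above control points in all 9 pairs, with the widest gap for miR-206-3p (4.02 to 4.16 with TGF-beta and 1.94 to 2.39 in control).

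The gap between miR-21a-5p and the second row of each library therefore differed too. miR-21a-5p was 3.20, 3.75 and 4.16 times the second row in TGF-beta replicates 1, 2 and 3, against 2.08, 2.39 and 1.94 times in control replicates 1, 2 and 3. The second row was miR-27b-3p in TGF-beta replicates 1 and 2 and miR-206-3p in the other libraries.

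Where the share came from was followed by the percentage points that each row gained or lost. Gains over all rows summed to 9.15 points and losses to the same sum, with 515 rows gaining and 550 losing. miR-21a-5p held 88.9% of the gain. Without TGF-beta replicate 3 it held 80.6%. The next gains were those of miR-199a-3p (0.236 points), miR-199a-5p (0.184 points), miR-7a-5p (0.170 points), miR-92a-3p (0.0590 points) and miR-29a-3p (0.0451 points). miR-199a-5p, a miRNA linked to fibrosis, and miR-92a-3p, made from a cluster with miR-17 that promotes growth, rose in the limma test, with log2 fold changes of 0.67 (adjusted p = 0.000479) and 0.82 (adjusted p = 0.000479). miR-7a-5p rose by 0.54 (limma adjusted p = 0.0230). That call was lost in 7 of 19 alternatives. It was lost without control replicate 3 (0.38), without TGF-beta replicate 2 (0.53) or without TGF-beta replicate 3 (0.44), with adjusted p from 0.120 to 0.180, and in limma with no filter, at 10 RPM, with quantile normalization or without trend, with adjusted p from 0.0534 to 0.205. miR-199a-3p and miR-29a-3p did not pass, at 0.32 and 0.15.

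Most of the loss fell on muscle miRNAs and a few other abundant rows. miR-206-3p took 8.44%, 8.64% and 8.83% of the reads in TGF-beta replicates 1, 2 and 3, against 13.1%, 11.7% and 13.3% in control replicates 1, 2 and 3. Its loss of 4.05 points was 44.3% of all loss. The next losses were those of miR-378a-3p (0.984 points), miR-27b-3p (0.570 points), miR-1a-3p (0.486 points) and miR-1b-5p (0.486 points), where the last pair has almost the same reads in each library and stands for 1 signal. Together these 5 rows held 71.9% of the loss, a figure in which the signal of that pair enters through both rows. It also includes miR-27b-3p, whose groups overlapped (7.29% to 10.6% with TGF-beta, 8.74% to 10.2% in control). miR-27b-3p did not pass the limma test (adjusted p = 0.714). The groups of the other rows did not overlap and limma called them lower, with calls lost under some settings as given below.

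The 9 next most abundant miRNAs together took 39.4% ± 0.445 with TGF-beta and 45.5% ± 1.07 in control, and all rows beyond those 10 took 25.4% ± 0.963 with TGF-beta and 27.4% ± 0.306 in control (SD, n = 3 each). The groups overlapped in neither sum, with a two-sided exact permutation p of 0.1 for each. The rest of the table, which is the total less the share of miR-21a-5p, was 64.8% ± 1.41 of the reads with TGF-beta and 73.0% ± 1.12 in control (SD, n = 3 each). If each other row had kept its place within the rest, its share would have been 0.889 times that of control, a log2 change of −0.17.

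Set against that equal shrinkage, the mean shares of the rows went both ways. miR-206-3p lost 2.64 points more than equal shrinkage gives, and miR-378a-3p lost 0.547 points more. let-7i-5p held 5.60% of the reads both with TGF-beta and in control, which is 0.625 points above equal shrinkage. miR-27b-3p stood 0.503 points above it, although its share was lower with TGF-beta. These are descriptions of mean shares with no test. The SD of the share with TGF-beta was 0.806 points for let-7i-5p and 1.69 points for miR-27b-3p, more than their distances from equal shrinkage.

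**Figure D4:**
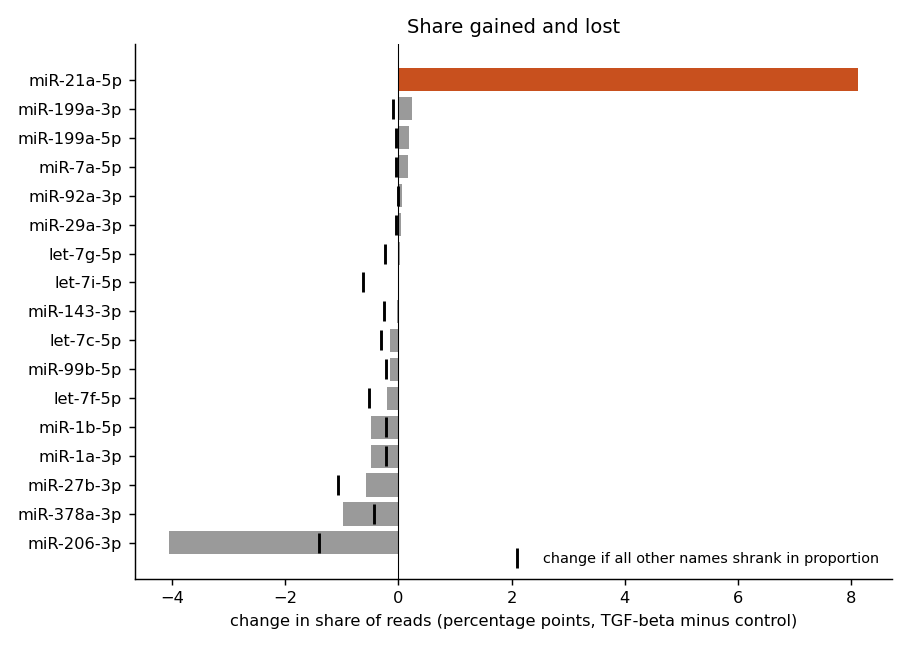
Change in the share of all miRNA reads in percentage points (TGF-beta minus control, 3 libraries each) for miR-21a-5p, the 9 next most abundant rows, and the rows with the largest gains and losses. Black ticks give the change that equal shrinkage of all other rows would give, and miR-206-3p (a loss of 4.05 points) lies far beyond its tick.

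How far the rise of miR-21a-5p sets the calls of other rows was examined by taking it out of the total, so that each name was read per 1000000 of the other reads. On that scale miR-21a-5p itself stood at 0.515, 0.532 and 0.580 reads per read of all other rows in TGF-beta replicates 1, 2 and 3, against 0.377, 0.388 and 0.347 in control replicates 1, 2 and 3. Its log2 fold change was 0.55 (SE 0.08, 95% interval 0.39 to 0.71; limma adjusted p = 7.25e-05), or 1.46-fold, in place of 1.30-fold on the scale of all reads. miR-21a-3p was at 0.40 (SE 0.20, limma adjusted p = 0.270) and did not pass on this scale either. With TMM scaling, which trims the most extreme rows, and with median of ratios scaling, miR-21a-5p rose by 0.43. In DESeq2, voom and edgeR on the recovered reads it rose by 0.43 to 0.45. These values lie between those on the scale of all reads (0.38) and of the other reads (0.55).

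The median log2 fold change of the 417 other tested names was −0.05 on the scale of all reads and 0.11 on the scale of the other reads. For the 240 of them that averaged 10 RPM or more the value moved up by 0.15 to 0.18. The step adds nearly the same amount to each of these names, so the direction in which signs and calls turn is set by the arithmetic and is no observation on the names. The number of names above 0 was 280 of 417 on the new scale and 168 on the scale of all reads. The number of calls was 33 of 418, or 7.89%, on both scales. The split was 26 higher (6.22%) and 7 lower (1.67%) on the new scale, against 17 higher (4.07%) and 16 lower (3.83%) on the scale of all reads. With TMM scaling it was 18 higher and 10 lower.

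Of the other names, 16 were called higher and 7 lower on both scales, 9 lower calls were lost and 9 higher calls were gained. miR-206-3p was among those called on both, at −0.55 on the scale of all reads and −0.38 on the scale of the other reads (limma adjusted p = 0.000479 and 0.00422). On the scale of all reads its call was lost with quantile normalization (−0.21, adjusted p = 0.277) and in limma without trend (adjusted p = 0.0526). Lower calls lost at 10 RPM or more were those of miR-378a-3p (−0.42 and then −0.25), miR-1a-3p (−0.43 and then −0.26), miR-532-5p (−0.44 and then −0.27), miR-503-5p (−0.70 and then −0.54) and miR-6540-5p (−0.56 and then −0.40). The call of miR-1b-5p, whose reads are almost those of miR-1a-3p, was lost as well. Limma adjusted p of these names was 0.0562 to 0.202 on the new scale. Higher calls gained at that level were those of miR-199a-3p (0.32 and then 0.49), miR-30b-3p (0.36 and then 0.53), let-7e-3p (0.46 and then 0.63) and miR-30d-3p (0.46 and then 0.63), with adjusted p of 0.00963 to 0.0429. The other gained and lost names had means under 10 RPM. Several of these lower calls were lost under other settings too. The call of miR-6540-5p was lost in 16 of 19 alternatives and that of miR-1a-3p in 14 of 19. Both were lost with TMM, median of ratios and quantile scaling, with no filter and at 10 RPM, in limma without trend, and in edgeR, DESeq2 and voom on the recovered reads. Over these settings the adjusted p of miR-1a-3p was 0.0583 to 0.279 and that of miR-6540-5p 0.0516 to 0.142. Among left-out libraries, miR-1a-3p no longer passed without control replicate 1 or 3 or TGF-beta replicate 2 or 3, and miR-6540-5p passed only when control replicate 3 was the library left out. The calls of miR-378a-3p, miR-532-5p and miR-503-5p were lost with quantile normalization and in limma without trend (adjusted p from 0.0679 to 1), and miR-532-5p no longer passed without control replicate 1 or TGF-beta replicate 2. Of the gained calls, that of let-7e-3p was also made with TMM and median of ratios scaling and in edgeR, DESeq2 and voom (adjusted p from 0.0125 to 0.0471). That of miR-30d-3p was made in DESeq2 (adjusted p = 0.0380) but not in the others of these settings. On the scale of all reads, both miR-199a-3p (0.49) and let-7e-3p (0.56) passed when TGF-beta replicate 3 was left out (limma adjusted p = 0.0136 and 0.0131). The count of calls on the scale of all reads was 18 without control replicate 1 and 17 without TGF-beta replicate 2. Without TGF-beta replicate 3, the scale of the other reads gave 62 calls, 49 higher and 13 lower, and without TGF-beta replicate 2 it gave 17, 12 higher and 5 lower.

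**Figure D5:**
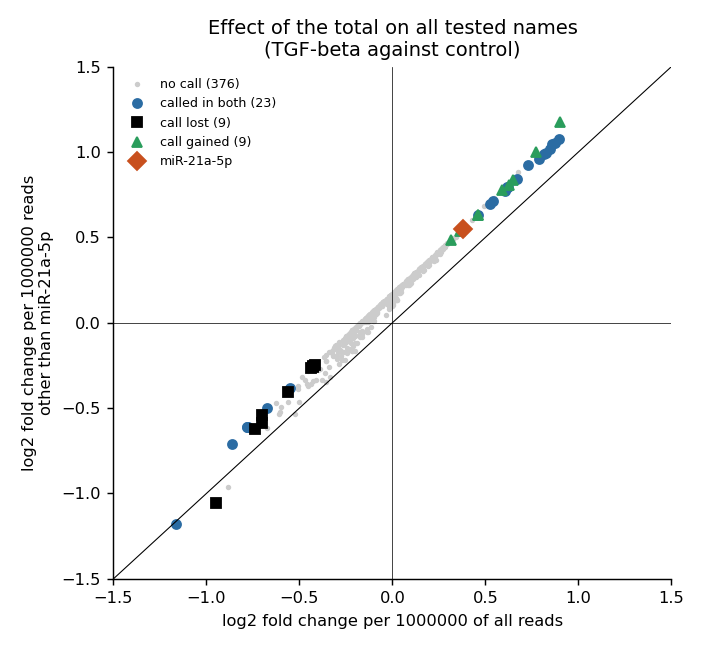
Log2 fold change (TGF-beta against control) of the 418 tested names on the scale of all reads (x axis) and on the scale of reads other than miR-21a-5p (y axis), coloured by call, with the line of equal values. Nearly all points lie above the line, 9 calls are lost below 0 and 9 are gained above 0.

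The CAGAC element known from the stem of miR-21 also lies in the mature 5p strand, at bases 9 to 13, where it is in capitals here with the 2 other rows of the list of TGF-beta and fibrosis miRNAs that hold it.
miR-21a-5p: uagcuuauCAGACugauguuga
miR-199a-5p: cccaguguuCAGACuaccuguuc
miR-214-3p: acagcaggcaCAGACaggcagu
The 5 letters were searched in the given strand of the mature sequences, and a match describes letters and is no sign of binding. Of 351 tested names matched to RefSeq, 7 held them (1.99%), against 1.67% of the 1679 mature names in RefSeq. The letters were searched because miR-21a-5p holds them and because the element is described in the stems of miR-21 and miR-199a. miR-199a-5p was therefore not found by the search either. Of the 6 other names, miR-199a-5p rose and 5 did not pass. miR-199a-5p was at 5075, 5002 and 4775 RPM in TGF-beta replicates 1, 2 and 3, against 3069, 3108 and 3142 RPM in control replicates 1, 2 and 3, so its groups did not overlap either. miR-214-3p, from the same primary transcript as a copy of miR-199a, was at 0.21 (SE 0.15), and miR-344d-3p, miR-7689-3p, miR-215-5p and miR-129b-3p lay between −0.26 and 0.23. miR-129b-3p had almost the same level in each library as miR-129-5p (means of 107.6 and 107.9 RPM with TGF-beta). Its reads may therefore not be its own. The median log2 fold change of the 6, miR-199a-5p included, was 0.05, beside −0.05 over all tested names.

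Among 26 miRNAs listed as tied to TGF-beta or fibrosis, both arms of miR-21a included, 24 were rows of the table and 22 were tested. In the limma test 3 rose (both miR-21a-5p and miR-199a-5p, and also miR-155-5p) and 2 fell (miR-206-3p and miR-503-5p), while 17 did not pass, beside 7.89% calls in either direction over all names. The list is not independent of earlier results on these libraries. miR-155-5p, a miRNA of inflammation, was at 387 ± 34.6 RPM with TGF-beta and 214.4 ± 5.59 RPM in control, with a log2 fold change of 0.84 (SE 0.13). The call of miR-503-5p was lost without TGF-beta replicate 2 (limma adjusted p = 0.0798). The median of the 22 was 0.03, beside −0.05 over all tested names, and 0.20 beside 0.11 with miR-21a-5p out of the total. Without both arms of miR-21a, 2 of 20 rose and 2 fell, and the median was 0.0031 on the scale of all reads and 0.17 on the scale of the other reads.

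Rows whose pattern over the 6 libraries was most like that of miR-21a-5p were sought among 132 other names that averaged 100 RPM or more, by the root mean square difference of log2(RPM + 1) values, each centred on its own mean. The nearest was miR-125b-1-3p, the passenger arm of a miR-125b hairpin, at 0.0743, followed by miR-224-5p (0.106), miR-214-5p (0.123), miR-361-3p (0.132) and miR-106b-3p (0.139), beside a median of 0.277 over the candidates. A flat line lies at 0.196 from miR-21a-5p by this measure. miR-125b-1-3p was at 451, 460 and 505 RPM in TGF-beta replicates 1, 2 and 3, against 322, 379 and 328 RPM in control replicates 1, 2 and 3, with TGF-beta replicate 3 the highest as for miR-21a-5p. This row was chosen for following miR-21a-5p in the same libraries, so its higher TGF-beta levels are no separate observation. It rose by 0.46 (SE 0.13, limma adjusted p = 0.0371). That call was lost in 9 of 19 alternatives. It held without TGF-beta replicate 3 (adjusted p = 0.0276) and was lost without each of the other libraries (limma adjusted p from 0.0512 to 0.159), and also with no filter (0.0512), quantile normalization (0.108) and in limma without trend (0.114). The other 4 did not pass.

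For miR-21a-3p the nearest of 240 other names that averaged 10 RPM or more was miR-214-5p, at 0.134. The median over these names was 0.332, and a flat line lies at 0.254 from miR-21a-3p. After miR-214-5p came 4 more names. These were miR-148a-3p, miR-30e-3p, miR-574-5p and miR-671-3p, at 0.173 to 0.182, and none of the 5 passed the test. miR-21a-5p was not among them. miR-214-5p is the only name among the nearest 5 of both arms.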

How the data were processed

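Small RNA of C2C12 cells was sequenced in 6 libraries, grouped by the treatment label. The authors deposited 1 table of miRNA names, headed TPM. Every column adds up to 1000000 and moves in equal steps, so the deposited values are RPM with no correction for length. All values (100%) gave whole reads to within 0.02 read, and 1 read was worth 0.102 to 0.111 RPM. Per the submitters' processing notes the reads were placed on mm9. Which aligner and counter were used, and how reads matching several names were shared out, is not given in the sources used here. Like miR-1a-3p and miR-1b-5p, miR-24-3p and miR-3074-5p had almost the same level in each library, as had miR-9-5p and miR-9b-3p. The total may therefore count some reads more than once. A deposited p-value per name, by the authors, is unadjusted and its test is not stated.

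Levels as log2(RPM + 1) were tested with limma 3.58.1 (R 4.3.3; trend on) for the 418 names that reached 1 RPM in 3 or more libraries. The 647 names left out held at most 0.0131% of the reads of a library. Calls needed p under 0.05, two-sided, after Benjamini-Hochberg adjustment over all tested names. Fold changes on this scale understate the change of low names. Arm ratios were tested with limma on log2((5p + 1)/(3p + 1)). Replicate pairs differed by a chi-square of 75.1 to 324 per degree of freedom, so none was treated as a copy. Count tests on the recovered reads used edgeR 4.0.16, limma-voom and DESeq2 1.42.0, and called 29, 30 and 29 names. The limma and arm ratio steps were run on simulated data. The changes given to names for limma were larger than that of miR-21a-5p and left that row out. Taking miR-21a-5p out of the total was not simulated. Of 1028 mouse names, 865 were matched to RefSeq by name, and folds were predicted with RNAfold 2.7.2.

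Named miRNAs are both arms, the 9 next most abundant, the 5 largest gains and losses of share, calls changed by taking miR-21a-5p out at a mean of at least 10 RPM, the 5 nearest patterns per arm, names sharing a seed or CAGAC, and the list of TGF-beta and fibrosis miRNAs. The members, lists and rules were chosen with earlier results of these data known.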

Additional observations from a re-analysis of the deposited data

How the results depend on the processing

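The level of miR-21a-5p kept its direction and its call in 16 of 19 alternatives, and leaving out single libraries gave log2 fold changes of 0.35 to 0.40 (limma adjusted p from 0.00102 to 0.0207). Its call was lost at 0.38 with no filter (limma adjusted p = 0.110) and without trend (0.158), and with quantile normalization the value was 0, since that step gives the top row 1 value in all libraries. miR-21a-3p passed in 0 of 19 alternatives, limma, edgeR and DESeq2 included, with 0.06 to 0.39 over left-out libraries. The arm ratio passed in none of 11, with −0.0049 without TGF-beta replicate 2 and up to 0.29, and could not be fitted at an arm filter of 100 RPM. The difference of the 3p percent of hairpin reads, −0.00033 in the main setting, ran from −0.00073 to 9.9e-05 over left-out libraries and was above 0 without TGF-beta replicate 2 (7.5e-05) and without control replicate 3. The share of miR-21a-5p differed by 7.35 to 8.71 points over left-out libraries, and its part of the gain was 80.6% to 89.1%. The count of calls was 33 in the main setting, 19 with no filter, 20 at 10 RPM, 10 with quantile normalization, 16 without trend, and 17 to 36 over left-out libraries (18 without control replicate 1, 17 without TGF-beta replicate 2). With miR-21a-5p taken out, an addition after the data were seen, it was 17 to 62. The median of the other names, −0.05, was −0.012 with no filter, −0.0031 with TMM, 0.0017 with median of ratios, −0.012 with quantile normalization, 0.11 with miR-21a-5p taken out, 0.019 with edgeR, 0.0037 with DESeq2, 0.017 with voom, and −0.077 to −0.035 over left-out libraries. The median of the TGF-beta and fibrosis list was 0.20 with miR-21a-5p taken out and 0.0014 to 0.078 over left-out libraries. Causes were not tested where none is given.

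Libraries with a shared replicate number did not deviate together (correlations of −0.084 to −0.068), so the numbers were not taken as pairs. With the number as a block, limma called 32 names, and miR-21a-5p was at 0.38 (adjusted p = 0.00456), miR-21a-3p at 0.23 (0.680) and the arm ratio at 0.15 (0.822). Of the other names given with a call, miR-125b-1-3p no longer passed with the block, at 0.46 (0.0669). Reads of miR-21a-3p, 90 to 148 per library, limit what can be said of that arm.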
